A study of Homo sapiens with 18 samples.

Results

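The response of the lung cancer line NCI-H3122 to the compound TRI-611 was followed over 15311 genes. These were chosen from the 57500 genes of the deposited table as those with at least 1 TPM (the usual unit of length-corrected share of a library's transcripts, scaled to a fixed total) in at least 3 of the line's 6 libraries. Of the 18 RNA-seq libraries in the series, 3 came from NCI-H3122 cells given 3 µM TRI-611 for 3 h and 3 from NCI-H3122 cells given the solvent DMSO for the same time. The other 12 came from SNU2535 and NCI-H2228 cells in the same arms, and are used here only to ask where NCI-H3122 differed. All groups carry the genotype label WT, and the cells were grown overnight on plates in RPMI medium with serum before treatment. By the series' title, TRI-611 degrades ALK as a molecular glue, a class of compound that joins a target protein to a ubiquitin ligase. The libraries were made from polyadenylated RNA, so the level of the ALK protein itself was not measured. Each group is 1 established line, and the labels do not say whether replicates came from separate cultures. The p-values therefore speak to the spread among these libraries alone, and that spread may be technical.

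NCI-H3122 is known for the EML4-ALK fusion, in which the amino-terminal part of EML4 holds the ALK kinase together in pairs and keeps it switched on. The fusion feeds the RAS, RAF, MEK and ERK kinases, which drive transcription of immediate early factors, growth factors and the cascade's own inhibitors. It also feeds PI3K and AKT, which hold FOXO transcription factors outside the nucleus and, through mTOR, favour ribosome production. MYC and cyclin D1 link both branches to growth and division.

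Between 23766 and 24741 genes were above 0 in each of the 6 libraries. On the log2(TPM + 1) scale, libraries of the same group correlated at 0.988 to 0.990 across the tested genes, and libraries of different groups at 0.975 to 0.980. The mitochondrially encoded share of TPM was 11.2% ± 1.52 (SD, n = 3) with DMSO and 12.5% ± 2.19 with TRI-611, a difference the exact two-sided permutation test did not separate (p = 0.5, where 0.1 is the smallest it can give). It reached 15.0% in TRI-611 replicate 3. The keratin gene KRT18 and EPCAM were high in all 6 libraries, and their values are given with the lineage genes below. Of the markers of other cell types, 2 of 12 blood, 2 of 7 endothelial and 2 of 9 fibroblast genes reached the level filter. PTPRC, the common blood cell antigen, did not exceed 0.03 TPM.

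TRI-611 changed 5214 genes, 34.1% of those tested (limma with Benjamini-Hochberg adjustment over all tested genes, adjusted p under 0.05). Of these, 3160 rose, 20.6% of the tested genes, and 2054 fell, 13.4%. The changes were mostly small: 189 genes rose and 147 fell by 2-fold or more on the log2(TPM + 1) scale, 2.19% of the tested genes in all. The 3 TRI-611 values lay above all 3 DMSO values for 4522 genes, 29.5%, and below them for 2842 genes, 18.6%, so that the groups of 48.1% of genes did not overlap. The median change of all tested genes was 0.05 log2 units. TPM values are shares of a fixed total, so the split between rises and falls depends on the scaling. It was 2751 against 2811 after median-ratio scaling, 2878 against 2560 after quantile normalization and 3839 against 2068 when mitochondrially encoded genes were left out of the total. Of the genes that rose, 97 passed the level filter through the TRI-611 libraries alone, and of those that fell, 46 passed it through the DMSO libraries alone. Protein-coding genes made up 4670 of the 5214. CCND1, MCL1, BBC3, VEGFA, ID2, EYA1 and PLK1, described below, share bases with a neighbouring or antisense gene, so part of their values may belong to it. In bulk RNA, fewer cells of a kind and less RNA per cell cannot be told apart.

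On the log2(TPM + 1) scale, the largest fall with TRI-611 was that of DUSP6, the phosphatase that switches off ERK in the cytoplasm, at -4.36 log2 units. The largest rise was that of CYP1A1, a xenobiotic-metabolizing oxidase, at 2.52. With a pseudocount of 0.1, the change of SPRY4 (-5.19) passed that of DUSP6 (-4.47), and those of ATOH8 (3.81) and KLHL24 (3.03) passed that of CYP1A1 (2.54). Among genes that reached a mean of 5 TPM in either group, DUSP6 was followed by SPRY4, FOSL1, DUSP5, the microRNA gene MIR3648-1, AREG, EGR1, EGR2, EREG and MFSD2A. CYP1A1 was followed by KLHL24, ATOH8, FZD2, PNRC1, PIK3IP1, EYA1, CASTOR2, SLC29A3 and the small nuclear RNA copy RNU6-1091P. RNU6-1091P passed at 0, 1.37 and 1.31 TPM with DMSO and 6.83, 5.74 and 6.08 TPM with TRI-611, and it missed the threshold with a pseudocount of 0.1 (limma, adjusted p = 0.0566). Near-identical copies of this small RNA exist elsewhere in the genome, so its value is uncertain. MIR3648-1 averaged 9.22 TPM in the control libraries (SD 4.33, n = 3) and 0.271 TPM in the treated ones (SD 0.469). It had passed the level filter through the DMSO libraries alone, and these were widely scattered, so the size of its fall is uncertain.

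**Figure D1:**
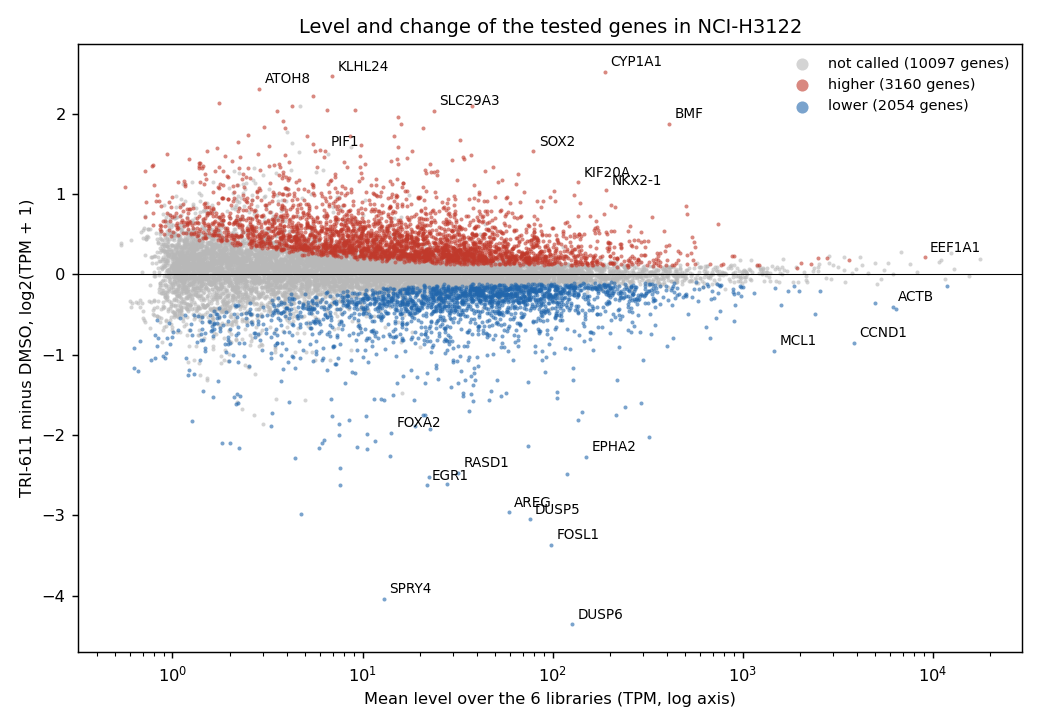
Change with TRI-611 (log2(TPM + 1), TRI-611 minus DMSO) against mean level (log scale) for the 15311 genes tested in NCI-H3122, with the 3160 that rose and the 2054 that fell in colour. The falls reach below -4 (DUSP6 and SPRY4), while the highest rise is 2.52 (CYP1A1).

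Neither gene of the fusion passed the test, while genes downstream of ERK fell. ALK measured 17.3, 15.3 and 15.9 TPM with DMSO and 15.6, 14.8 and 14.8 TPM with TRI-611, and the values overlapped (-0.09 log2 units, SE 0.0612, limma adjusted p = 0.282). EML4 gave 145, 137 and 142 TPM and 141, 151 and 143 TPM, also overlapping (0.03, SE 0.0396, adjusted p = 0.558). Reads from the fusion cannot be told apart here from reads of either whole gene. Over all tested genes 20.6% rose and 13.4% fell, with a median of 0.05. Among 24 genes for the fusion, its adaptors and the kinases down to ERK, 7 rose and 4 fell, with a median of 0.00. The 4 falls became 2 with the replicate number as a block, and 1 or 2 when any single library other than TRI-611 replicate 2 was left out. The adaptor gene IRS1, which carries insulin receptor signals, fell from 24.6 ± 1.33 to 13.2 ± 1.44 TPM (SD, n = 3). GAB1, a docking protein for PI3K and the phosphatase SHP2, rose from 0.996 ± 0.138 to 2.29 ± 0.155 TPM. KSR1, a scaffold for RAF and MEK, rose from 4.67 ± 0.425 to 8.19 ± 0.308 TPM.

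ERK output was read with a 10-gene list that is in common use for this pathway (DUSP4, DUSP6, SPRY2, SPRY4, PHLDA1, CCND1, EPHA2, EPHA4, ETV4 and ETV5). Of its 10 genes, 9 fell and none rose, against 13.4% and 20.6% of all tested genes, and the median change was -1.29 against 0.05. ETV4 was the one that did not pass the test. For DUSP6 the 3 DMSO libraries gave 250.4, 242 and 237 TPM and the 3 TRI-611 libraries 12.9, 9.64 and 10.3 TPM. Every treated value was far below every control value (-4.36 log2 units, SE 0.0955, limma adjusted p = 4.64e-07). The DUSP6 gene (ENSG00000139318, GRCh38 chromosome 12, 89347232 to 89353271) overlaps AC024909.2 on the other strand, and strand use in the counting is not given in the sources used here. SPRY4, which blocks the step from receptors to RAS, gave 26.2, 24.8 and 24.8 TPM and then 0.665, 0.518 and 0.603 TPM. It ended below 1 TPM in every treated library and so had passed the level filter through the DMSO libraries alone (-4.04, SE 0.0776, adjusted p = 1.59e-07). PHLDA1, a pleckstrin-homology protein, fell from 204 ± 1.95 to 35.6 ± 1.79 TPM (SD, n = 3), and EPHA2, an ephrin receptor, from 249.9 ± 9.30 to 51.0 ± 4.47 TPM.

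The phosphatases of the cascade did not fall as 1 block. Of 13 tested genes for MAP kinase phosphatases, from 14 listed, 8 fell and DUSP16 rose, against 13.4% and 20.6% of all tested genes. The list median was -0.59. DUSP5, the nuclear ERK phosphatase, gave 133, 137 and 138 TPM with DMSO and 16.3, 15.0 and 15.3 TPM with TRI-611. The groups were far apart (-3.05 log2 units, SE 0.0436, limma adjusted p = 7.38e-08). DUSP4 fell from 50.4 ± 0.928 to 17.4 ± 0.864 TPM, DUSP7 from 55.4 ± 0.889 to 19.1 ± 0.911 TPM and DUSP2 from 6.46 ± 0.675 to 2.32 ± 0.325 TPM (SD, n = 3). DUSP1, which acts mainly on the stress kinases p38 and JNK, was at 19.1 TPM in the DMSO and 22.0 TPM in the TRI-611 libraries, and DUSP10, of the same preference, at 22.4 and 21.2 TPM. Neither DUSP1 nor DUSP10 passed the test, and both were named after their values were seen.

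Inhibitors that act at receptors and RAS went both ways. Of 16 tested, from 18 listed, 8 fell and 4 rose, against 13.4% and 20.6% of all tested genes. ERRFI1, which binds and blocks EGFR family kinases, gave 445, 437 and 439.7 TPM with DMSO and 139.6, 144 and 148 TPM with TRI-611. The treated values did not reach the control values (-1.61 log2 units, SE 0.0332, limma adjusted p = 1.76e-07). SPRED1, a brake on RAF activation, fell from 84.4 ± 1.33 to 29.8 ± 2.25 TPM, SPRY2 from 41.1 ± 2.97 to 18.7 ± 1.11 TPM and SPRY1 from 7.83 ± 0.732 to 3.19 ± 0.714 TPM. The 4 that rose were LRIG1 (0.71) and LRIG3 (0.85), membrane proteins that restrain growth factor receptors, the ubiquitin ligase gene CBLB (0.49) and the RAS GTPase activator gene RASAL2 (0.44), all in log2 units. They were named after their values were seen, to complete the count.

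**Figure D2:**
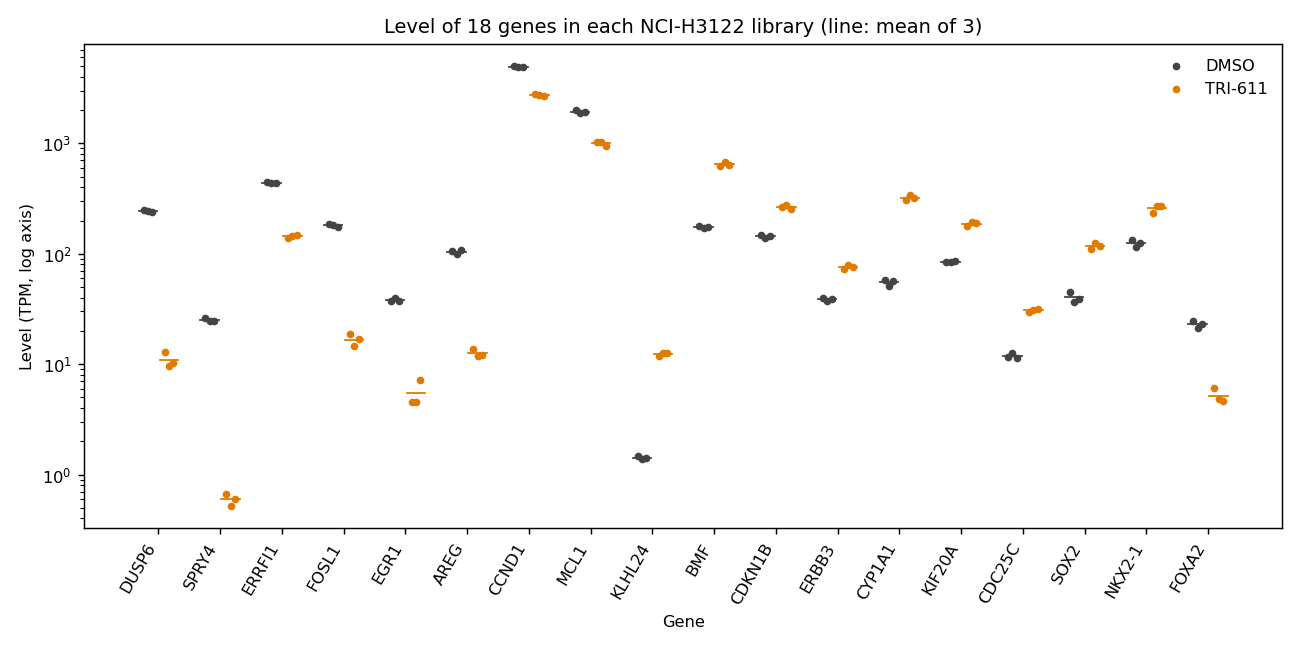
TPM (log scale) in each of the 3 DMSO and 3 TRI-611 libraries of NCI-H3122 for 18 genes, with the group mean as a line. In DUSP6 and SPRY4 the points are furthest apart, and no gene in the panels has overlapping groups.

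Most immediate early factors that changed fell. Of 11 tested AP-1 and MAF genes, from 12 listed, 6 fell and 3 rose, against 13.4% and 20.6% of all tested genes. Their median was -0.47. FOSL1, the AP-1 subunit most closely tied to sustained ERK activity, gave 184, 181 and 176 TPM with DMSO and 18.7, 14.5 and 16.9 TPM with TRI-611. No treated value came near the control values (-3.37 log2 units, SE 0.0820, limma adjusted p = 4.64e-07). MAFF, a small MAF factor, fell from 10.8 ± 0.898 to 1.83 ± 0.222 TPM and JUN from 68.7 ± 4.61 to 41.9 ± 0.504 TPM (SD, n = 3). FOS was low in both arms, with means of 5.02 ± 1.49 TPM under DMSO and 3.01 ± 1.92 TPM under TRI-611, and did not pass the test (adjusted p = 0.19). ATF3, a stress-responsive factor, rose by 0.56, and FOSL2 and JUND rose by 0.40 and 0.30 log2 units.

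In the list of EGR, NR4A, IER and KLF genes, which also holds CTGF, 13 of 20 tested fell and 3 rose. These were from 23 listed, and the list median was -0.47. Over all tested genes, 13.4% fell and 20.6% rose. EGR1, a zinc finger factor induced within minutes by ERK, gave 37.0, 39.7 and 37.4 TPM with DMSO and 4.56, 4.50 and 7.26 TPM with TRI-611. The groups were well separated (-2.63 log2 units, SE 0.156, limma adjusted p = 4.68e-05). EGR2 gave 13.4, 14.6 and 13.3 TPM and 1.58, 1.33 and 1.28 TPM (-2.62, SE 0.0885, adjusted p = 1.58e-06). CTGF (CCN2), a matrix protein and a YAP and SRF target, fell from 16.7 ± 3.56 to 4.21 ± 1.10 TPM, KLF6 from 27.6 ± 0.973 to 14.7 ± 0.251 TPM and IER3 from 856 ± 17.7 to 493 ± 19.8 TPM. The 3 that rose were NR4A2, KLF9 and KLF11, at 0.55, 0.49 and 0.33 log2 units, named after their values were seen.

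Promoter letters are shown for 4 of these genes, because they fell together and because known ERK-linked factors bind such letters. SRF, whose partner ELK1 is activated by ERK, binds the CArG box, and CREB and ATF or AP-1 dimers bind the letters TGACGTCA. The sequences are RefSeq promoter windows of GRCh38.p14, 120 bases each, read 5′ to 3′ on the gene's strand and ending 1 base before the annotated start, with motif matches in capitals. EGR1 (chr5:138465359-138465478 (plus strand)) holds 2 CArG boxes, beginning 105 and 83 bases before the start. EGR2 (chr10:62816367-62816486 (minus strand), 1 of 3 start windows) holds 1, at 71 bases. AREG (chr4:74445016-74445135 (plus strand)) and MAFF (chr22:38201874-38201993 (plus strand), 1 of 2 windows) hold TGACGTCA at 65 and 54 bases.
EGR1: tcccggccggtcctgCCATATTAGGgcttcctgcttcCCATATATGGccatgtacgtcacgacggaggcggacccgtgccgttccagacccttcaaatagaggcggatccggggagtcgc
EGR2: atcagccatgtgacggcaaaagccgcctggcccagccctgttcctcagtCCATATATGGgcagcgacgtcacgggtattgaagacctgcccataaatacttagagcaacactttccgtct
AREG: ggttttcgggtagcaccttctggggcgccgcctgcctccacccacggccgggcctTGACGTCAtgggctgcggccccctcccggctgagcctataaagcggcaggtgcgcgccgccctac
MAFF: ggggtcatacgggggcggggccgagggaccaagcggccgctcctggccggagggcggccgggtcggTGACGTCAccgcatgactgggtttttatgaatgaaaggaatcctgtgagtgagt
The full windows of 250 bases before and 50 after the start were searched on both strands. A CArG box was present in 12% of 25 windows of the EGR, NR4A, IER and KLF list that also holds CTGF. It was present in 1.20% of 14199 windows of tested protein-coding genes. TGACGTCA was present in 18.2% of 11 windows of the AP-1 and MAF genes and in 2.87% of the same 14199. A match is a description of the letters and not a measured binding site.

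Of 18 tested ETS factor genes, from 19 listed, 7 fell and 8 rose, against 13.4% and 20.6% of all tested genes. SPDEF, an epithelial ETS factor, fell from 50.5 ± 1.86 to 17.1 ± 2.23 TPM and ETV5, a classical ERK target, from 12.6 ± 0.252 to 6.12 ± 0.932 TPM (SD, n = 3). ELF3, an epithelium-specific factor, rose from 96.9 ± 3.76 to 181 ± 7.69 TPM, ELF1 from 61.9 ± 1.49 to 112 ± 5.15 TPM and EHF from 63.2 ± 2.36 to 103 ± 7.53 TPM. Among 11 genes for proteins that control the decay of short-lived messenger RNAs or growth arrest, 4 rose and 4 fell. Over all tested genes 20.6% rose and 13.4% fell. The list median was 0.07, against 0.05 over all tested genes. PNRC1, a nuclear protein that lowers ribosomal RNA processing, gave 14.4, 12.5 and 14.0 TPM with DMSO and 63.0, 66.5 and 55.2 TPM with TRI-611. Each treated value exceeded all control values (2.09 log2 units, SE 0.0807, limma adjusted p = 2.95e-06). ZFP36L1, which binds AU-rich elements, fell from 135 ± 5.64 to 67.8 ± 2.63 TPM, while PDCD4, an inhibitor of the helicase eIF4A, rose from 16.2 ± 1.07 to 32.4 ± 2.16 TPM.

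Secreted growth factors were among the most reduced genes. Of 13 tested ligand genes of the EGFR, FGFR and related families, from 20 listed, 10 fell and 3 rose. The list median was -0.78, and over all tested genes 13.4% fell and 20.6% rose. AREG, an EGFR ligand, gave 105, 100.4 and 109 TPM with DMSO and 13.8, 11.8 and 12.0 TPM with TRI-611. The arms did not overlap (-2.97 log2 units, SE 0.0652, limma adjusted p = 2.45e-07). EREG, a neighbouring gene of the same family, gave 49.5, 47.9 and 47.5 TPM and 7.18, 7.62 and 6.49 TPM (-2.61, SE 0.0624, adjusted p = 3.45e-07). HBEGF fell from 10.3 ± 0.831 to 1.52 ± 0.234 TPM, TGFA from 128 ± 4.20 to 54.6 ± 3.72 TPM and the angiogenic factor gene VEGFA from 33.4 ± 1.12 to 9.23 ± 0.172 TPM (SD, n = 3). The 3 rises were of KITLG, GAS6 and FGF9 (0.30, 0.41 and 0.60 log2 units), named after their values were seen. The rises numbered 1 with the replicate number as a block, after quantile normalization and without any one of the libraries other than DMSO replicate 1.

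Cytokine and checkpoint genes that ERK and AP-1 are known to drive also fell. LIF, an IL-6 family cytokine, gave 19.3, 19.2 and 19.5 TPM with DMSO and 4.09, 3.67 and 3.73 TPM with TRI-611, with no overlap (-2.08 log2 units, SE 0.0633, limma adjusted p = 1.06e-06). LIF overlaps LIF-AS1 on the other strand. CXCL8, the neutrophil chemoattractant, and IL11 fell from low levels, with changes of -1.60 and -1.52 log2 units (3.83 ± 0.335 and 3.84 ± 0.705 TPM with DMSO), and both had passed the level filter through the DMSO libraries alone. CD274, which encodes the checkpoint ligand PD-L1, gave 18.2, 17.6 and 16.5 TPM and 3.42, 3.44 and 4.04 TPM, again without overlap (-1.99, SE 0.0790, adjusted p = 3.32e-06). In the list of 19 tested interferon and MHC class I genes, from 29 listed, CD274 was the 1 gene that fell and 4 rose. Over all tested genes 13.4% fell and 20.6% rose, so the share of rises was near that over all genes. The list median was 0.009, against 0.05 over all tested genes. The 4 rises were IRF2 (0.86), IRF1 (0.64), STAT2 (0.58) and TAPBP (0.18), in log2 units. TAPBP was lost after median-ratio scaling and without any single library other than TRI-611 replicate 3. Of 14 tested NF-kB target and chemokine genes, from 25 listed, 7 fell and 2 rose, against 13.4% and 20.6% of all tested genes. ICAM1 was the higher of the 2 rises at 0.86, and the falls were 3 or 4 without any single DMSO replicate. The IL-6 receptor gene IL6R rose from 4.74 ± 0.346 to 9.98 ± 1.02 TPM, and STAT3 fell from 59.0 ± 3.42 to 40.1 ± 2.92 TPM.

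Of 20 tested receptor kinase genes other than ALK, from 28 listed, 8 rose and 3 fell, against 20.6% and 13.4% of all tested genes, with a median of 0.11 against 0.05. The falls numbered 5 after median-ratio or quantile scaling. ERBB3, the kinase-poor partner of EGFR and HER2 that recruits PI3K, gave 39.5, 37.0 and 39.2 TPM with DMSO and 72.6, 78.7 and 75.2 TPM with TRI-611. All treated values were higher (0.95 log2 units, SE 0.0463, limma adjusted p = 8.37e-06). INSR, the insulin receptor gene, rose from 1.33 ± 0.344 to 3.45 ± 0.397 TPM, FGFR3 from 14.5 ± 0.755 to 26.2 ± 3.91 TPM and FGFR2 from 2.37 ± 0.462 to 4.63 ± 0.397 TPM (SD, n = 3). INSR and ERBB3 also stand on the FOXO list below. IGF1R and ERBB2, which encodes HER2, rose from 37.8 ± 1.62 to 62.2 ± 1.89 and from 20.6 ± 0.854 to 31.3 ± 0.300 TPM, while EGFR fell from 131 ± 2.04 to 88.3 ± 1.37 TPM; these 3 were named after their values were seen. EPHB3, an ephrin receptor, had the largest rise of the list, from 18.1 ± 0.654 to 50.5 ± 2.00 TPM (1.43 log2 units).

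FOXO targets rose as a group. Of 28 tested genes for FOXO factors and their known targets, from 30 listed, 24 rose and 2 fell, against 20.6% and 13.4% of all tested genes, with a median of 0.83. Between 18 and 24 rose over the alternatives tried, and the falls were 1 without any single library other than TRI-611 replicate 2. KLHL24, an adaptor of the Cullin-3 ubiquitin ligase, gave 1.49, 1.39 and 1.41 TPM with DMSO and 11.9, 12.6 and 12.7 TPM with TRI-611. The treated libraries stood well above the controls (2.47 log2 units, SE 0.0782, limma adjusted p = 1.22e-06). PIK3IP1, a membrane protein that inhibits PI3K, gave 0.875, 1.08 and 1.03 TPM and 8.14, 7.06 and 7.31 TPM, without overlap (2.09, SE 0.103, adjusted p = 8.77e-06); it overlaps PIK3IP1-AS1 on the other strand. FBXO32, the ubiquitin ligase subunit atrogin-1, rose from 8.61 ± 0.827 to 33.0 ± 1.47 TPM, DEPP1, an autophagy regulator, from 5.31 ± 0.160 to 15.4 ± 1.33 TPM and GABARAPL1, an autophagosome protein, from 12.2 ± 1.28 to 33.1 ± 3.30 TPM (SD, n = 3). The factor genes FOXO1, FOXO3 and FOXO4 themselves rose by 0.62, 0.60 and 0.79 log2 units. The 2 falls were of IRS2, an insulin receptor adaptor, and GADD45A, a growth arrest gene, at -0.98 and -0.31. These 5 were named after their values were seen.

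The letters TGTTTAC, which FOXO factors are known to bind, stood in the promoter windows of DEPP1 and BCL2L11, shown because both genes rose and because both are known FOXO targets. The stretches are 120 bases of GRCh38.p14 from the RefSeq windows, on the gene's strand, with the match in capitals, in both cases read from the other strand as GTAAACA: DEPP1 (chr10:44978900-44979019 (minus strand)), match 180 bases before the start, and BCL2L11 (chr2:111120674-111120793 (plus strand)), match 223 bases before the start.
DEPP1: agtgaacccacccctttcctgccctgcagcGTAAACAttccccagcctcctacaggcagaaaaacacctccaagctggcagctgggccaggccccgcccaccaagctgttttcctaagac
BCL2L11: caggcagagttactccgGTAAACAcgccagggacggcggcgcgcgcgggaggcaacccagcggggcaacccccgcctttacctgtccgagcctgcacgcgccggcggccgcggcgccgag
TGTTTAC, on either strand, was present in 13.2% of 38 windows of the FOXO list, in 2.58% of 14199 windows of tested protein-coding genes, in 4.05% of windows of genes that rose and in 2.10% of windows of genes that fell.

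The PI3K, AKT and mTOR genes themselves moved less: 12 of 27 tested, from 31 listed, rose, against 20.6% of all tested genes. Their median was 0.11. The falls numbered 2, with 0 to 4 over the alternatives: none without DMSO replicate 1, and 1 with the block or without DMSO replicate 2 or any single TRI-611 replicate. CASTOR2, related to the arginine sensor of mTOR complex 1, rose from 1.92 ± 0.278 to 11.1 ± 1.35 TPM. PIK3R3, a regulatory subunit of PI3K, rose from 5.85 ± 0.634 to 9.59 ± 0.677 TPM, TSC1 from 10.7 ± 0.303 to 16.2 ± 1.21 TPM and PIK3CA from 9.58 ± 0.319 to 13.2 ± 0.445 TPM (SD, n = 3). DDIT4, an mTOR inhibitor that many stresses induce, gave 485, 429 and 447 TPM with DMSO and 632, 681 and 573 TPM with TRI-611, a rise of 0.47 log2 units (SE 0.0706, limma adjusted p = 0.00216). Among 32 lysosome and autophagy genes 14 rose and 4 fell, against 20.6% and 13.4% of all tested genes. The falls in this list were 2 with the block or without any one of the libraries other than TRI-611 replicates 1 and 2. ULK1, the kinase that starts autophagy, rose by 1.28 and MITF, a lysosomal and lineage factor, by 1.20 log2 units.

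MYC fell while 4 genes for its antagonists at MAX rose. In the list of 12 tested genes of this network, from 13 listed, 5 rose and 4 fell. Over all tested genes, 20.6% rose and 13.4% fell. MYC gave 421, 416 and 427 TPM with DMSO and 273, 264 and 275 TPM with TRI-611 (-0.64 log2 units, SE 0.0310, limma adjusted p = 8.37e-06). MXD4 and MXI1, which compete with MYC for MAX, rose from 7.06 ± 0.165 to 16.4 ± 0.816 TPM and from 20.7 ± 0.512 to 35.7 ± 3.70 TPM (SD, n = 3). MNT, of the same kind, rose from 16.8 ± 0.480 to 29.9 ± 1.58 TPM. MXD3, the member known from dividing cells, rose from 4.22 ± 0.115 to 12.3 ± 2.19 TPM. A further antagonist gene, MXD1, changed by -0.32 log2 units and was named after its value was seen. MXD3 overlaps PRELID1 and RAB24, so part of its value may belong to them.

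Ribosome assembly factors fell in small steps. Of 40 genes, 30 fell and 1 rose, against 13.4% and 20.6% of all tested genes. The list median was -0.34, and between 26 and 36 of the 40 fell over the alternatives tried. The single rise was lost with the block, after median-ratio scaling and without any one library other than TRI-611 replicate 1. URB2, a nucleolar factor, gave 28.8, 29.8 and 28.9 TPM with DMSO and 15.2, 16.4 and 16.3 TPM with TRI-611, without overlap (-0.83 log2 units, SE 0.0487, limma adjusted p = 1.84e-05). NIP7 fell from 83.9 ± 2.10 to 47.1 ± 1.18 TPM, LYAR from 124 ± 0.423 to 71.4 ± 4.32 TPM and RRS1 from 204 ± 4.44 to 122 ± 3.37 TPM (SD, n = 3). The E-box CACGTG, bound by MYC and MAX, was present in 35.7% of 42 windows of this list and 9.37% of the 14199 windows of tested protein-coding genes. Translation initiation genes had 13 falls among 26, 8 with the replicate block; EIF2S1, a subunit of the initiation factor that stress kinases inhibit, changed by -0.44 log2 units, and EIF4B, a helper of the cap-binding complex that rose, by 0.40. The 59 genes for cytosolic ribosomal proteins had 6 rises and no fall, at a median of 0.03, and the number of rises ran from 0 to 20 over the alternatives. It was 0 after median-ratio scaling, 20 after quantile normalization, 1 with the replicate block, 15 without TRI-611 replicate 3 and 0 or 1 without any other single library.

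**Figure D3:**
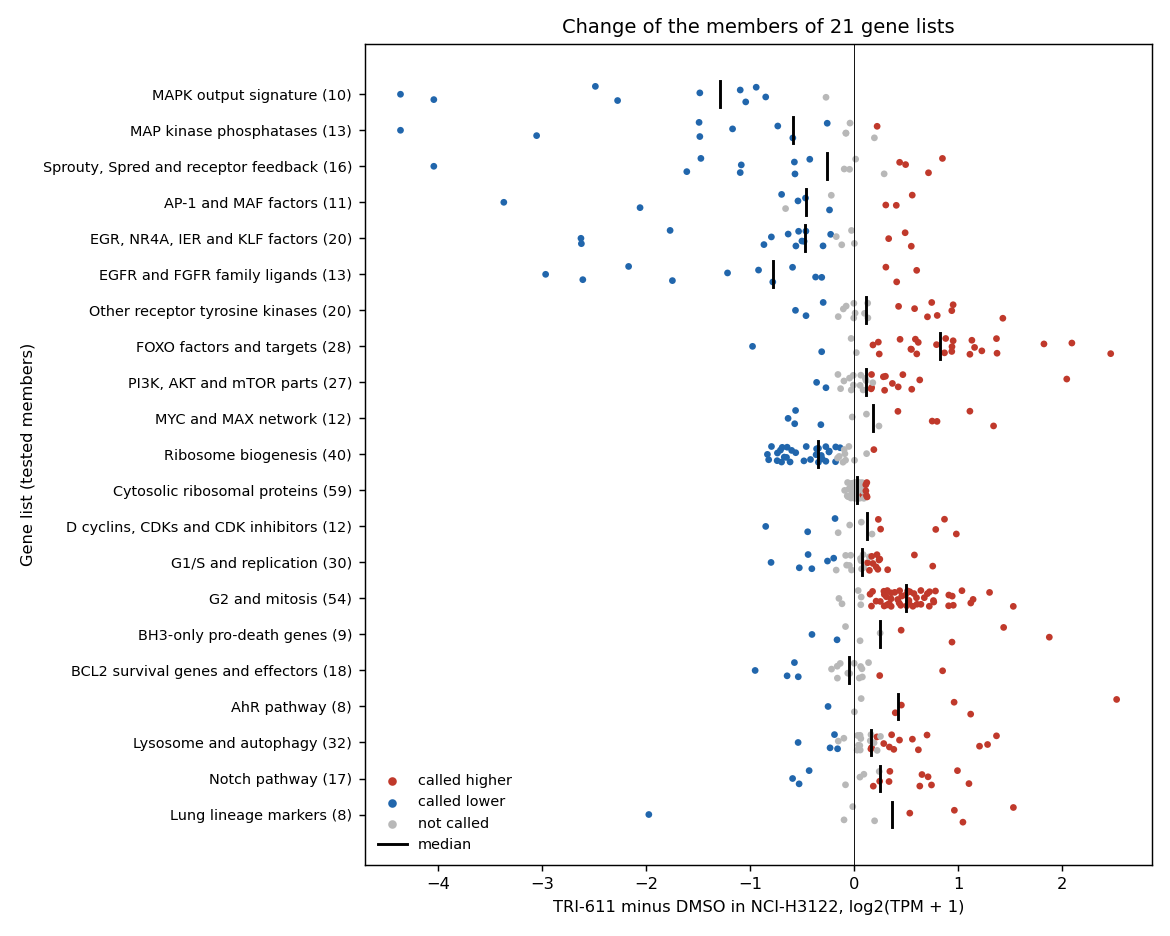
Change with TRI-611 (log2 units) for every tested member of selected gene lists in NCI-H3122, 1 point per gene coloured by call, with the list median as a bar and 0 as a line. ERK output and ligand genes lie mostly to the left, FOXO targets and G2 and mitosis genes mostly to the right.

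The D cyclin genes CCND1 and CCND3 fell, and 3 genes for CDK inhibitors rose. Of 12 tested D cyclin, CDK and inhibitor genes, from 15 listed, 5 rose, 3 fell and 4 were not called. Over all tested genes, 20.6% rose and 13.4% fell. CCND1, which encodes cyclin D1, gave 5021, 4882 and 4899 TPM with DMSO and 2783, 2731 and 2695 TPM with TRI-611. It was among the largest falls in TPM of any gene and the groups did not overlap (-0.85 log2 units, SE 0.0282, limma adjusted p = 1.44e-06). CCND3 fell from 21.1 ± 0.790 to 15.2 ± 0.750 TPM (SD, n = 3). The inhibitor genes CDKN1B, which encodes p27 and is a FOXO target, CDKN2C and CDKN2D rose from 144 ± 5.75 to 264 ± 12.1, from 5.10 ± 0.0856 to 11.1 ± 0.305 and from 8.67 ± 1.24 to 15.6 ± 1.05 TPM. Of 30 G1/S and replication genes, 12 rose and 6 fell, beside the same shares over all genes. CCNE1 changed by -0.80, CCNE2 by -0.44, E2F2 by 0.75, E2F8 by 0.58 and the phosphatase gene CDC25A by -0.53 log2 units.

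G2 and mitosis genes rose nearly as a whole. Of 54 genes, 49 rose and none fell, against 20.6% and 13.4% of all tested genes, with a median of 0.50, and the groups of 51 did not overlap, as for 48.1% of all genes. PIF1, a DNA helicase of late S and G2, gave 2.93, 2.73 and 2.58 TPM with DMSO and 7.75, 11.2 and 10.9 TPM with TRI-611, and each treated value was above every control value (1.53 log2 units, SE 0.134, limma adjusted p = 0.000124). CDC25C, the phosphatase that starts mitosis, gave 11.6, 12.7 and 11.5 TPM and 29.8, 31.2 and 31.5 TPM; it overlaps FAM53C on the other strand. KIF20A, a kinesin of cytokinesis, gave 84.2, 83.6 and 85.4 TPM and 178, 194 and 191 TPM, and overlaps BRD8 and CDC23. All 3 had separate groups. CENPF, a kinetochore protein, rose from 39.9 ± 2.29 to 88.2 ± 9.17 TPM and CKAP2, a spindle protein, from 66.7 ± 3.09 to 138 ± 6.45 TPM (SD, n = 3). Taken by replicate number, the list medians were 0.36, 0.59 and 0.50. Over the alternatives tried, 46 to 49 of the 54 rose. The count of falls was 2 after median-ratio scaling, 1 after quantile normalization and 1 without TRI-611 replicate 2.

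The promoters of such genes are known for the letters TTTGAA (the cell cycle homology region, CHR), bound by the DREAM and B-MYB complexes, with CCAAT boxes, bound by NF-Y, upstream of it. Promoters of 6 members that hold both are shown, to let the spacing be seen. Each is the 120 bases before the RefSeq start on GRCh38.p14, read on the gene's strand, with both motifs in capitals, as ATTGG or TTCAAA where the match is on the other strand. CDC25C (chr5:138331805-138331924 (minus strand), 1 of 4 start windows) has the CHR 30 and CCAAT 85 bases before the start, and PIF1 (chr15:64825648-64825767 (minus strand)) has them at 20 and 45. PLK1, the polo-like kinase (chr16:23678769-23678888 (plus strand)), has them at 29 and 73, and CCNB2, cyclin B2 (chr15:59105026-59105145 (plus strand)), at 29 and at 54, 87 and 120. KIF11, the spindle kinesin Eg5 (chr10:92593010-92593129 (plus strand)), has them at 28 and 53, and PRC1, a midzone bundling protein (chr15:90994536-90994655 (minus strand)), at 20 and 53.
CDC25C: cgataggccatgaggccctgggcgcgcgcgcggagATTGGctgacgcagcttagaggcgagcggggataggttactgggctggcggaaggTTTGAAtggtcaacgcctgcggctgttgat
PIF1: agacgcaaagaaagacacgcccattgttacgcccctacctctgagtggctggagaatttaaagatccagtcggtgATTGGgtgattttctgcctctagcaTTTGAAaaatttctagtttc
PLK1: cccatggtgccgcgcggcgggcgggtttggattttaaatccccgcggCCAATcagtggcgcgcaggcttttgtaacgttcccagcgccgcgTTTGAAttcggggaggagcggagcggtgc
CCNB2: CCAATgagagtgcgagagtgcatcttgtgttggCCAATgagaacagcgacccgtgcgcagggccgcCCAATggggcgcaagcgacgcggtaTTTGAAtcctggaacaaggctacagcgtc
KIF11: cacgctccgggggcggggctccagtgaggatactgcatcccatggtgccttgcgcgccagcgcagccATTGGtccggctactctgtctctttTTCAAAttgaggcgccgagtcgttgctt
PRC1: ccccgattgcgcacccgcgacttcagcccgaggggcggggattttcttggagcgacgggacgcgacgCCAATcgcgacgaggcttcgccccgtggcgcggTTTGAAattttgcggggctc
The CHR letters were present in 57.9% of 57 windows of the list, for which 46 of 54 genes had an entry (85.2%), against 10.3% of the 14199 windows of tested protein-coding genes. The share was 12.8% among genes that rose and 9.03% among genes that fell. CCAAT was present in 75.4% of the 57 windows and 34.9% of the 14199. KIF20A had CCAAT without the CHR letters in this window. PLK1, CCNB2, KIF11 and PRC1 rose by 0.53, 0.64, 0.60 and 0.32 log2 units and were chosen for these letters after their values were seen.

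NCI-H3122 differed from the other lines in these genes. In SNU2535, 12 of the 54 rose and 4 fell, with a median of 0.07, where 10.7% and 18.1% of all genes tested in that line did. In NCI-H2228, 16 rose and 3 fell, with a median of 0.12, where 4.80% and 6.40% of all tested genes did. The change was higher in NCI-H3122 than in SNU2535 for 45 of the 54 and lower for none, by the limma test of the difference over all 12 libraries, against 16.4% and 3.71% of the 13788 genes tested in both. Against NCI-H2228 it was higher for 38 and lower for none, where 8.99% and 5.34% of 13878 genes differed in those directions. PIF1 changed by 1.53 in NCI-H3122, 0.30 in SNU2535 and 0.57 in NCI-H2228 (differences of 1.23 and 0.96, limma adjusted p = 0.00102 and 0.0119). For CENPF the changes were 1.12, 0.31 and 0.44 (differences 0.81 and 0.68, adjusted p = 0.000912 and 0.00153). No direct measure of the cells' phase is in these data.

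**Figure D4:**
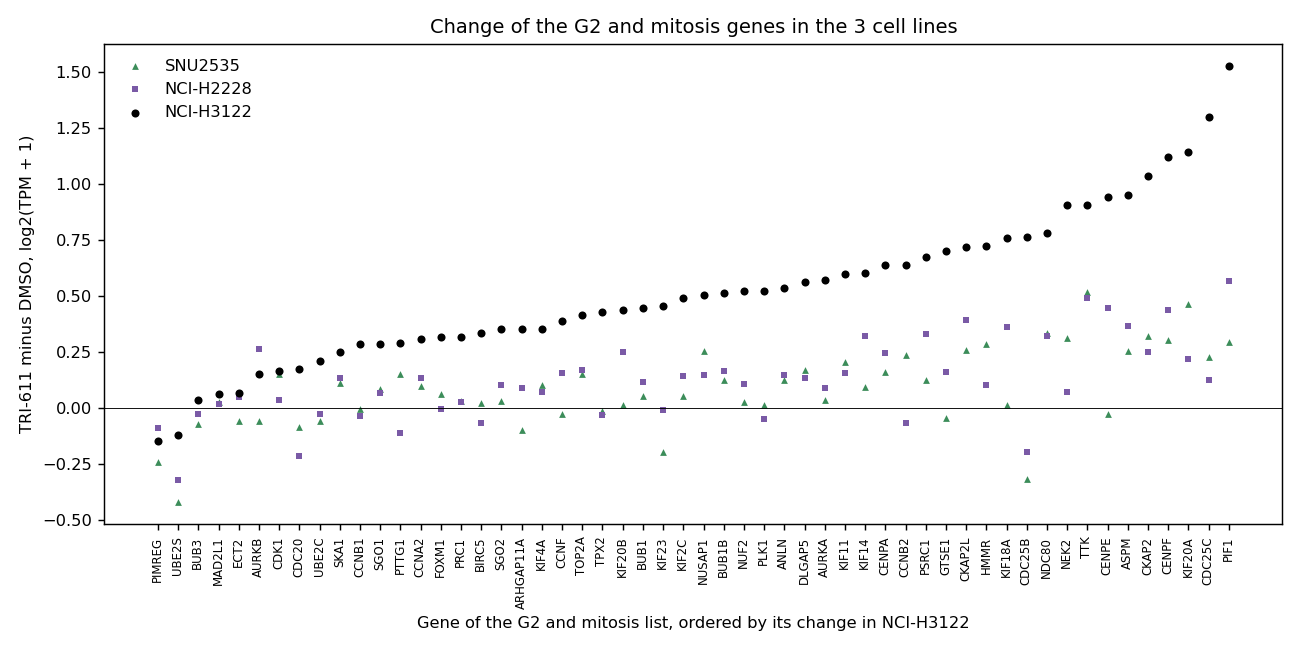
Change with TRI-611 (log2 units) of each of the 54 G2 and mitosis genes, ordered along the x axis by the change in NCI-H3122, with 1 symbol per line. The NCI-H3122 points lie mostly above 0, around a median of 0.50, while those of SNU2535 and NCI-H2228 have medians of 0.07 and 0.12.

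The BH3-only death genes BMF, BBC3 and BCL2L11 rose. Of 9 tested BH3-only genes, from 10 listed, 4 rose and 2 fell, against 20.6% and 13.4% of all tested genes. The falls numbered 1 with the block and when TRI-611 replicate 3 or DMSO replicate 1 or 3 was left out. BMF, which neutralizes BCL2 family survival proteins, gave 179, 171 and 175 TPM with DMSO and 626, 674 and 636 TPM with TRI-611. It was also among the largest gains in TPM of any gene (1.88 log2 units, SE 0.0380, limma adjusted p = 1.76e-07), and it overlaps BMF-AS1. BCL2L11, which encodes BIM and is a FOXO target, gave 19.3, 18.1 and 19.5 TPM and 34.7, 38.3 and 39.1 TPM, without overlap (0.94, SE 0.0587, adjusted p = 2.57e-05). BBC3, which encodes PUMA, rose from 7.70 ± 0.458 to 22.6 ± 1.88 TPM, and PMAIP1, which encodes NOXA, fell from 54.0 ± 0.926 to 40.5 ± 2.56 TPM (SD, n = 3). Among 18 survival genes and effectors, 4 fell and 2 rose, a share near the 34.1% called among all tested genes. APAF1, the scaffold of the apoptosome, changed by 0.85 and BCL2A1, a survival gene, by -0.64 log2 units. MCL1, a short-lived survival protein, gave 2001, 1878 and 1915 TPM and 1019, 1020.3 and 955 TPM, all treated values being lower (-0.95, SE 0.0393, adjusted p = 4.01e-06). BCL2L1, which encodes BCL-XL, fell from 122 ± 1.35 to 83.8 ± 5.32 TPM and the effector gene BAK1 from 32.5 ± 2.56 to 21.5 ± 0.717 TPM. Of 19 tested p53 targets, from 20 listed, 7 rose and 7 fell, again against 20.6% and 13.4% of all tested genes. TP53INP1 rose from 2.55 ± 0.590 to 9.34 ± 1.06 TPM and the polo-like kinase gene PLK3 fell from 11.2 ± 1.36 to 2.60 ± 0.486 TPM. CDKN1A, which encodes p21 and was named after its value was seen, was at 263 ± 15.6 and 236 ± 13.5 TPM and did not pass the test.

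Aryl hydrocarbon receptor (AhR) targets rose with CYP1A1 at their head. CYP1A1 gave 58.4, 50.9 and 57.0 TPM with DMSO and 309, 339 and 320.4 TPM with TRI-611, with no overlap (2.52 log2 units, SE 0.0595, limma adjusted p = 3.42e-07). Of 8 tested genes of this pathway, from 11 listed, 5 rose and 1 fell, against 20.6% and 13.4% of all tested genes. The fall was that of the gene of the receptor itself (AHR, named after its value was seen). That call was lost when TRI-611 replicate 3 or DMSO replicate 1 or 3 was left out. AHRR, the receptor's repressor, rose from 3.77 ± 0.476 to 9.35 ± 0.724 TPM, CYP1B1 from 65.4 ± 1.34 to 128 ± 4.19 TPM and ALDH3A1 from 69.8 ± 5.13 to 95.8 ± 4.62 TPM (SD, n = 3). The receptor's core letters GCGTG stood 57 bases before the CYP1A1 start (chr15:74725529-74725648 (minus strand), GRCh38.p14, RefSeq window, gene's strand, match in capitals). These short letters are common: they were present in 48.6% of the 14199 windows of tested protein-coding genes, in 44.4% of windows of genes that rose and in 53.7% of windows of genes that fell.
CYP1A1: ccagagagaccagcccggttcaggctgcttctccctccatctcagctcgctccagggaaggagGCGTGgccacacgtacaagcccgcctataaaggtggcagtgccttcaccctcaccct
CYP1A1 changed by 1.58 in SNU2535 and 0.65 in NCI-H2228, and the rise in NCI-H3122 exceeded that in NCI-H2228 by 1.87 log2 units (limma adjusted p = 3.41e-08). Its means went from 0.236 to 2.66 TPM in SNU2535 and from 2.61 to 4.67 TPM in NCI-H2228. The DMSO mean in SNU2535 lay below 1 TPM, so the log2(TPM + 1) scale understates the rise there. It does not rank that rise against the one in NCI-H3122.

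Of 8 tested lung lineage genes, from 19 listed, 4 rose, 1 fell and 3 were not called. Over all tested genes, 20.6% rose and 13.4% fell. SOX2, an airway and stem cell factor, gave 45.3, 36.7 and 39.0 TPM with DMSO and 110.3, 126 and 118 TPM with TRI-611, and NKX2-1, the thyroid and lung master factor, gave 134, 116 and 124 TPM and 236, 271 and 269 TPM. In neither did the groups overlap (1.53 log2 units, SE 0.0831, limma adjusted p = 1.82e-05 for SOX2; 1.05, SE 0.0713, adjusted p = 4.68e-05 for NKX2-1). NKX2-1 overlaps NKX2-1-AS1 on the other strand. TP63, a basal cell factor gene, rose from 33.3 ± 0.745 to 66.0 ± 5.43 TPM and FOXA1, a pioneer factor of endoderm, from 173 ± 6.57 to 250.2 ± 0.477 TPM (SD, n = 3). FOXA2, its close relative, was the gene that fell: it gave 24.8, 21.5 and 23.3 TPM with DMSO and 6.06, 4.83 and 4.62 TPM with TRI-611. The groups were far apart and opposite in direction to those of FOXA1 (-1.97 log2 units, SE 0.0991, limma adjusted p = 9.21e-06). FOXA2 changed by -1.41 in SNU2535 and -0.82 in NCI-H2228. Among 14 epithelial markers 6 rose and 4 fell: GRHL2 changed by 0.89, ESRP1 by 0.53, CDH1 by 0.23 and KRT18 by -0.49 log2 units. KRT18 had means of 2803 ± 50.3 TPM under DMSO and 1998 ± 116 TPM under TRI-611. EPCAM was at 666 ± 21.1 and 649 ± 15.5 TPM, and the mesenchymal filament gene VIM at 0.939 ± 0.216 and 1.27 ± 0.139 TPM; neither passed the test, and both were named after their values were seen. LUM, a matrix gene on the fibroblast list, was at 208 ± 3.75 and 176 ± 5.30 TPM, while DCN, POSTN and PDGFRB of the same list did not reach the level filter.

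In the Notch pathway 10 of 17 tested genes, from 18 listed, rose and 3 fell, against 20.6% and 13.4% of all tested genes. The ligand gene DLL4 rose from 1.84 ± 0.178 to 3.75 ± 0.289 TPM, the modifier gene LFNG from 86.1 ± 3.38 to 173 ± 12.1 TPM and NOTCH3 from 47.2 ± 3.06 to 77.8 ± 3.04 TPM (SD, n = 3). DLL1 rose by 1.10 log2 units and passed the level filter through the TRI-611 libraries alone. Of 20 tested BMP, SMAD and ID genes, from 22 listed, 7 rose and 2 fell, beside the same shares over all genes. ATOH8, a helix-loop-helix factor that BMP signals induce, gave 0.274, 0.289 and 0.322 TPM and 5.48, 6.09 and 4.76 TPM, and it too passed through the TRI-611 libraries alone (2.31, SE 0.130, limma adjusted p = 1.49e-05). SMAD6, an inhibitor of BMP receptors, rose by 1.17, and ID2, ID3 and ID4, which encode dominant-negative helix-loop-helix factors, changed by 1.67, 0.91 and 0.58. Wnt receptors and targets had 7 rises and 7 falls among 21 tested genes, from 26 listed, again beside 20.6% and 13.4% of all genes. The receptor gene FZD2 gave 1.37, 1.11 and 1.39 TPM and 10.4, 9.66 and 8.93 TPM, without overlap (2.22, SE 0.101, adjusted p = 5.97e-06), and FZD8, another receptor gene, changed by -0.89. DKK1, a secreted Wnt inhibitor, fell from 28.3 ± 3.32 to 15.5 ± 1.63 TPM (SD, n = 3). EYA1, a phosphatase and transcription coactivator, rose from 2.94 ± 0.268 to 15.3 ± 1.37 TPM.

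Few metabolic genes moved far. HK2, the hexokinase that growth signals induce, fell from 195 ± 6.53 to 118 ± 3.47 TPM and the glucose carrier gene SLC2A1 from 396 ± 4.68 to 299 ± 16.1 TPM (SD, n = 3). In all, 7 of 25 tested glycolysis genes, from 26 listed, fell, against 13.4% of all tested genes, at a list median of -0.04. Among 16 tested hypoxia genes, from 18 listed, 4 rose and 4 fell, against 20.6% and 13.4% of all tested genes. After median-ratio scaling 7 hypoxia genes fell. KDM3A, a histone demethylase, rose by 0.87 and NDRG1 changed by -0.50 log2 units. SLC29A3, a lysosomal nucleoside carrier, rose from 8.71 ± 0.362 to 38.8 ± 1.18 TPM. MFSD2A, a lysolipid carrier, gave 40.9, 37.0 and 38.8 TPM with DMSO and 6.75, 5.75 and 5.36 TPM with TRI-611, without overlap (-2.52 log2 units, SE 0.0818, limma adjusted p = 1.35e-06).

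The largest shifts in TPM, rather than in fold, included those of CCND1 and BMF, described above, and of several abundant genes. EEF1A1, which encodes a translation elongation factor, and the ferritin genes FTH1 and FTL rose by 0.21, 0.20 and 0.21 log2 units, and the actin genes ACTB and ACTG1 changed by -0.40 and -0.36. EEF2, S100A16 and S100A11 were in the same group of genes at 0.17, -0.43 and -0.15. After quantile normalization EEF1A1, EEF2, S100A16 and S100A11 no longer passed the test. EEF2 was also lost after median-ratio scaling and without DMSO replicate 2, and S100A11 without DMSO replicate 1 or 2.

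Across all genes, the response of NCI-H3122 was shared in part with the other lines, which carry their own DMSO controls. The change correlated with that in SNU2535 at 0.55 over 13788 genes and with that in NCI-H2228 at 0.476 over 13878 genes, across genes that are not independent. Of the genes that rose here, 31.6% also rose in SNU2535 and 17.7% in NCI-H2228; these were 61.1% and 73.3% of the rises there. Of the genes that fell here, 69.7% also fell in SNU2535 and 35.6% in NCI-H2228, which were 48.8% and 68.8% of the falls there. Another 157 genes rose here and fell in SNU2535, and 32 did the reverse. By the limma test of the difference, 2769 genes, 20.1%, changed by unequal amounts in NCI-H3122 and SNU2535, with NCI-H3122 the higher for 2257. Against NCI-H2228, 1988 genes, 14.3%, differed, with NCI-H3122 the higher for 1247. These splits by direction were counted in the deposited scaling alone, and whether they hold under another scaling was not tested.

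ERK output sat between the other lines. The 10-gene list had medians of -1.76 in SNU2535 and -0.85 in NCI-H2228 beside -1.29 here; the fall was smaller here than in SNU2535 for 6 of the 10 and deeper here than in NCI-H2228 for 9. For DUSP6 the changes were -4.36 here, -4.24 in SNU2535 and -1.86 in NCI-H2228. Its means went from 243 to 11.0 TPM here, from 27.2 to 0.488 TPM in SNU2535 and from 15.2 to 3.47 TPM in NCI-H2228. The treated mean in SNU2535 lay below 1 TPM, so the log2(TPM + 1) scale understates the fall of DUSP6 in that line. FOXO targets had medians of 0.42 in SNU2535 and 0.40 in NCI-H2228 beside 0.83 here, and the change was higher here for 10 and 12 of the 28 genes and lower for 2 and 3. Over all genes, 16.4% and 8.99% were higher here and 3.71% and 5.34% lower. KLHL24 changed by 2.47, 1.96 and 1.66. Ribosome assembly fell most in SNU2535, at a median of -0.50 and 37 falls, beside -0.34 and 30 here and -0.33 and 33 in NCI-H2228. Of all genes tested in each line, 18.1% fell in SNU2535, 13.4% here and 6.40% in NCI-H2228. The change of ribosome assembly genes was higher here than in SNU2535 for 19 of the 40.

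Several regulators had changes of opposite sign in NCI-H3122 and SNU2535. ZFP36L1 changed by -0.98 here, 0.37 in SNU2535 and 0.31 in NCI-H2228 (differences of -1.35 and -1.29, limma adjusted p = 6.04e-08 and 1.30e-07). SMAD6 changed by 1.17, -0.47 and -0.09, and the difference from SNU2535 was 1.64 (adjusted p = 1.70e-06). For KSR1 the changes were 0.70, -0.50 and -0.01, and for CDKN2D, which encodes p19, 0.78, -0.32 and -0.39; their differences from SNU2535 were 1.20 and 1.10 (adjusted p = 8.92e-05 and 0.000196). FOXA1 changed by 0.53, -0.24 and 0.33, which differed from SNU2535 by 0.78 (adjusted p = 6.77e-06). RASD1, which encodes a RAS-related protein, was furthest below SNU2535 among these, with -2.47 here, 0.88 in SNU2535 and -0.25 in NCI-H2228.

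**Figure D5:**
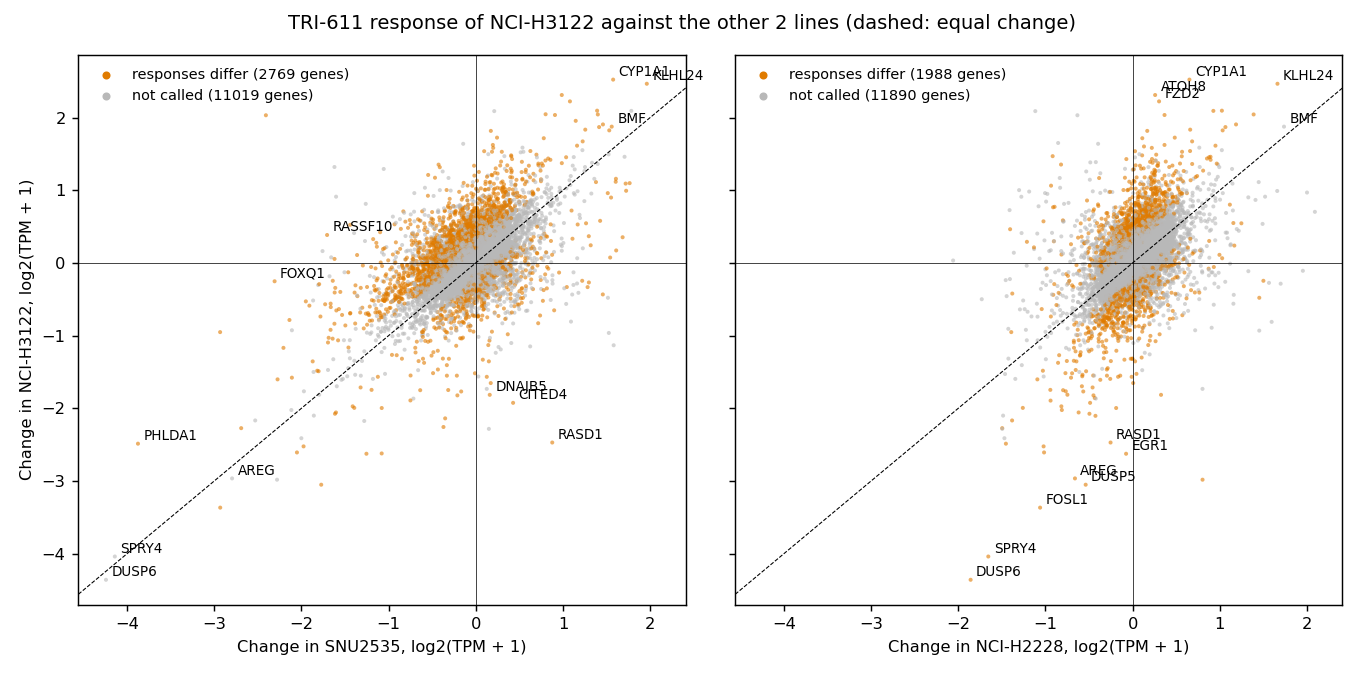
Change with TRI-611 (log2 units) in NCI-H3122 against that in SNU2535 (13788 genes) and in NCI-H2228 (13878 genes), with genes whose changes differed by the limma test in colour and equal change as a dashed line. Coloured points above that line outnumber those below it in both panels, 2257 against 512 and 1247 against 741, in the deposited scaling.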

How the data were processed

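RNA-seq of polyadenylated RNA from 18 cell line libraries was analysed from a deposited table of TPM values, 1 column per library and 57500 genes. The authors trimmed reads with fastp 0.23.1, aligned them to GRCh38 with STAR 2.5.2b and counted with featureCounts (Subread 1.5.2), and also list DESeq2, all per the submitters' processing notes. Not given in the sources used here are the annotation, strand use, what was done with molecular identifiers and the step from counts to TPM. Each deposited TPM column has the same fixed total, so depth is unknown and no counting interval can be given. GENCODE 29 gave types and coordinates for 56898 genes by identifier, and 485 genes carry no name in the table.

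Genes with at least 1 TPM in at least 3 of the 6 NCI-H3122 libraries were tested on log2(TPM + 1) with limma 3.58.1 in R 4.3.3 (trend and robust settings), adjusted by Benjamini-Hochberg over all of them, with a threshold of 0.05. Fold changes on this scale understate the change of low genes. Differences between lines were contrasts over the 12 libraries of a pair of lines, on genes that passed in both. The steps were tested on simulated data. The labels give each library a batch equal to its replicate number; within NCI-H3122, deviations of same-numbered libraries correlated at -0.0865, -0.0290 and 0.0152, and the number was a block in an alternative fit. Other alternatives changed the pseudocount, the level filter, the scaling and the libraries in the fit; leaving out libraries for the mitochondrial share was chosen after seeing the data.

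Members and gene lists were chosen with earlier results of these data known. Named genes were ALK and EML4, the 10 largest changes each way among called genes whose groups do not overlap and whose higher mean reached 5 TPM, the 5 largest TPM shifts each way, up to 5 called genes with the largest changes of each of 49 lists with counterparts that did not pass, and the genes that differed most between lines. Promoter windows (250 bases before to 50 after a start) are from RefSeq. Figures were drawn with matplotlib 3.10.9 in Python 3.11.15.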

Additional observations from a re-analysis of the deposited data

Results flagged for a closer look

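Between NCI-H3122 and SNU2535, 2769 genes changed with TRI-611 by unequal amounts in the limma test of the difference (adjusted p under 0.05). Of the genes named by size of difference, RNU6-1091P had a response 4.44 log2 units higher in NCI-H3122. For RNU6-1091P, SNU2535 gave 5.45 ± 4.47 TPM (SD, n = 3) with DMSO and was listed at 0 in all 3 TRI-611 libraries, so the value rests on a widely scattered group and a group at 0. The responses of RASSF10, a tumour suppressor of the RAS association family, and FOXQ1, a forkhead factor, were 2.09 and 2.06 higher. DNAJB5, a co-chaperone, differed by -1.98, CITED4, a transcription coactivator, by -2.35 and RASD1 by -3.35. Within NCI-H3122, RASSF10 differed by 0.38 between arms (limma adjusted p = 0.0546) and FOXQ1 by -0.25 (adjusted p = 0.155), and neither passed the test. In SNU2535 they changed by -1.71 and -2.31.

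Against NCI-H2228, 1988 genes had unequal responses by the same test. ATOH8, FZD2 and CYP1A1 were higher in NCI-H3122 by 2.05, 1.92 and 1.87 log2 units. DUSP5, EGR1 and MIR3648-1 were lower, with differences of -2.51, -2.55 and -3.78. MIR3648-1 lies in repeated ribosomal DNA sequence, so its reads cannot be placed with certainty. Its NCI-H2228 means were 1.63 TPM for control cells (SD 1.66, n = 3) and 2.95 TPM for treated cells (SD 0.929). Its difference thus rests on low values and on the scattered NCI-H3122 controls, at 9.22 TPM (SD 4.33, n = 3).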

How the results depend on the processing

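With 1 library left out at a time, 3915 to 4860 genes were called in NCI-H3122, 2251 to 2972 higher and 1566 to 1938 lower. The differences from SNU2535 ranged from 2100 to 2853 genes and those from NCI-H2228 from 1532 to 1943. The TRI-611 minus DMSO difference in mitochondrial share ranged from 0.16 to 2.24 percentage points. With the replicate number as a block, 4294 genes were called (2513 higher, 1781 lower), of which 4174 were among the 5214 without it, and the differences numbered 2538 and 1802. Of 237 named genes, 209 kept every call. Among those that lost a call with the block were RPSA, RPS3, RPL32, CRBN and DDIT3 (limma adjusted p = 0.0685 for CRBN and 0.120 for DDIT3). The change of EML4, which passed no test, was -0.0181 under median-ratio scaling, against 0.03 in the deposited scaling. Scaling moved the median of all tested genes by at most 0.046 log2 units. Changes of 2-fold or more numbered 338 higher and 207 lower with a pseudocount of 0.1, and 45 and 81 with 5; a larger pseudocount draws the fold changes of low genes towards 0.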

Other observations

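Stress and clock genes outside the comparisons above moved in mixed ways. Of 21 tested heat shock and co-chaperone genes, from 22 listed, 12 fell and 4 rose, against 13.4% and 20.6% of all tested genes. DNAJB4, a co-chaperone, rose from 12.4 ± 2.06 to 30.9 ± 1.99 TPM (SD, n = 3), HSPA1A, the inducible HSP70 gene, from 13.0 ± 1.17 to 21.7 ± 2.96 TPM, and DNAJB1 fell from 218 ± 6.45 to 158 ± 5.95 TPM. HSPA1A and HSPA1B are near-identical copies, so the split of reads between them is uncertain. Of 16 tested clock genes, from 19 listed, 7 rose and 4 fell, or 2 fell without DMSO replicate 3. The output factor gene DBP gave 6.49, 6.10 and 6.43 TPM with DMSO and 23.1, 24.2 and 22.0 TPM with TRI-611, without overlap (1.72 log2 units, SE 0.0596, limma adjusted p = 1.74e-06), and it overlaps SPHK2. Among YAP and TEAD genes, WWTR1, which encodes TAZ, fell from 30.9 ± 1.01 to 12.6 ± 0.580 TPM and F3, tissue factor, from 213 ± 4.54 to 59.8 ± 3.36 TPM, while AJUBA rose from 46.8 ± 4.00 to 95.6 ± 4.12 TPM. The list had 4 rises and 4 falls among 17 tested genes, from 18 listed, beside the same shares over all genes.

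Of 17 tested cereblon ligase parts and known neosubstrates, from 20 listed, 3 rose and 3 fell, a share near the 34.1% called among all tested genes. CRBN, the substrate receptor, had means of 5.04 ± 0.381 TPM under DMSO and 6.65 ± 0.785 TPM under TRI-611; its rise was lost with the block (limma adjusted p = 0.0685), after quantile normalization and when replicate 2 or 3 of either arm was left out. The 3 rises numbered 1 with the block. ZFP91, a zinc finger neosubstrate, changed from 118 ± 1.93 to 87.6 ± 6.14 TPM.

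Shares of called genes differed by gene span and level. Among tested protein-coding genes with spans under 5 kb, 16.4% rose and 19.1% fell, and among those of 150 kb or more, 35.1% rose and 7.11% fell. By mean level, 10.7% of genes under 3 TPM rose and 3.56% fell, against 16.5% and 25.1% of genes at 100 TPM or more. Span, level and the scaling of TPM were not separated here.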
